A study of Rattus norvegicus with 82 samples.

Results

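The 10 genes described here serve glucose uptake, glycolysis and the response to low oxygen, and they were measured in the hearts of rats given a drug that binds tubulin. They are Ndrg1, Egln3 and Vegfa, which are read as hypoxia and stress genes, the glucose transporters Slc2a1 and Slc2a4, the hexokinases Hk1 and Hk2, and the glycolytic enzymes Pfkp, Pgk1 and Ldha. Each was taken by its symbol from the probe annotation of the array, and a gene with more than 1 probe set was represented by the one that was brightest on average across the 82 arrays. All 10 were found among the 14217 gene symbols with a probe set, and all 10 were among the 11319 genes that passed the filter on low values.

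Glucose enters cardiac muscle cells through Slc2a4 (GLUT4), which insulin and contraction move to the cell surface, and through Slc2a1 (GLUT1), which sits there largely without insulin. Hexokinases trap the sugar as glucose 6-phosphate, phosphofructokinase commits it to glycolysis, and phosphoglycerate kinase and lactate dehydrogenase act further down the path. When oxygen is short, the prolyl hydroxylases that mark hypoxia-inducible factors for destruction slow down, and the stabilised factors raise genes such as Vegfa, Slc2a1, Pgk1 and Ldha. The adult heart runs mainly on fatty acids and turns more to glucose under load or low oxygen.

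Vinblastine and vincristine are vinca alkaloids used against cancer, and colchicine is a plant alkaloid used against gout; all of them bind tubulin and stop microtubules from forming. Male rats of the Wistar (Crl:Wi(Han)) stock were dosed intravenously with vinblastine at 0.5 or 3 mg/kg, vincristine at 0.1 or 1 mg/kg, colchicine at 0.2 or 2 mg/kg, or the saline vehicle, and hearts were taken after 6 or 24 h. This gave 14 groups of 6 animals, except for 5 animals in each vincristine 0.1 mg/kg group, with 1 array of total RNA per animal. The series asks how such drugs affect the heart; no age and no region of the heart is stated in the labels. The doses of the compounds are not matched, so values of different compounds stand side by side and were not tested against each other. Every treated group shares the vehicle animals of its time with the other treated groups.

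The deposited values are array intensities on a linear scale, 1 per probe set, with array medians between 57.6 and 63.3. A log2 change below is the difference between group means of log2(intensity + 16), given with its standard error (SE) from a limma fit over all 82 arrays; folds are on that same scale, which understates the change of dim genes. A gene is said to have risen or fallen where its Benjamini-Hochberg adjusted p over the 11319 genes was below 0.05. Cardiac muscle markers such as Myh6 and Tnnt2 were bright on every array, and their summed intensity was 145395 to 171084 in the 24 h vehicle hearts and 140809 to 172428 after colchicine 2 mg/kg at 24 h. Because whole tissue was measured, fewer cells of a type and less RNA per cell cannot be told apart.

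Some arrays did not sit with the group of their label, and this touches the genes described here. Of the 82 arrays 43 lay nearer to the median profile of another group than to that of the rest of their own. Some of the 43 are vehicle arrays nearest a lower-dose group, and at the lower doses at most 0.274% of all genes passed against vehicle. On 10 of the 43 the ratio of the distances was above 1.3. Among the higher doses these were vinblastine 3 mg/kg 6 h replicate 1, vincristine 1 mg/kg 6 h replicate 3, colchicine 2 mg/kg 6 h replicate 4 and colchicine 2 mg/kg 24 h replicate 1. Among the lower doses they were vinblastine 0.5 mg/kg 6 h replicate 6 and 24 h replicate 5, vincristine 0.1 mg/kg 24 h replicate 5, and, for colchicine 0.2 mg/kg, 6 h replicates 1 and 6 with 24 h replicate 6. The array of colchicine 2 mg/kg 24 h replicate 1, for example, read 2992 for Slc2a4, among the vehicle values, while that of vinblastine 3 mg/kg 6 h replicate 1 read 373. The calls in groups that hold these arrays are given again without them, and so are tests that missed the threshold with all arrays but passed without them. Where neither group compared holds one of the 10 arrays, the log2 change stays as it was. Only the spread shared by all groups then moves, and with it the adjusted p. In 22 comparisons the 10 genes gave 53 calls, a call being an adjusted p below 0.05. All of them were made without the 10 arrays too. These arrays were picked from the same values for lying far from their own group, and this run was not planned. Leaving such arrays out tends to narrow the spread, so calls kept or gained without them are no separate support.

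**Figure D1:**
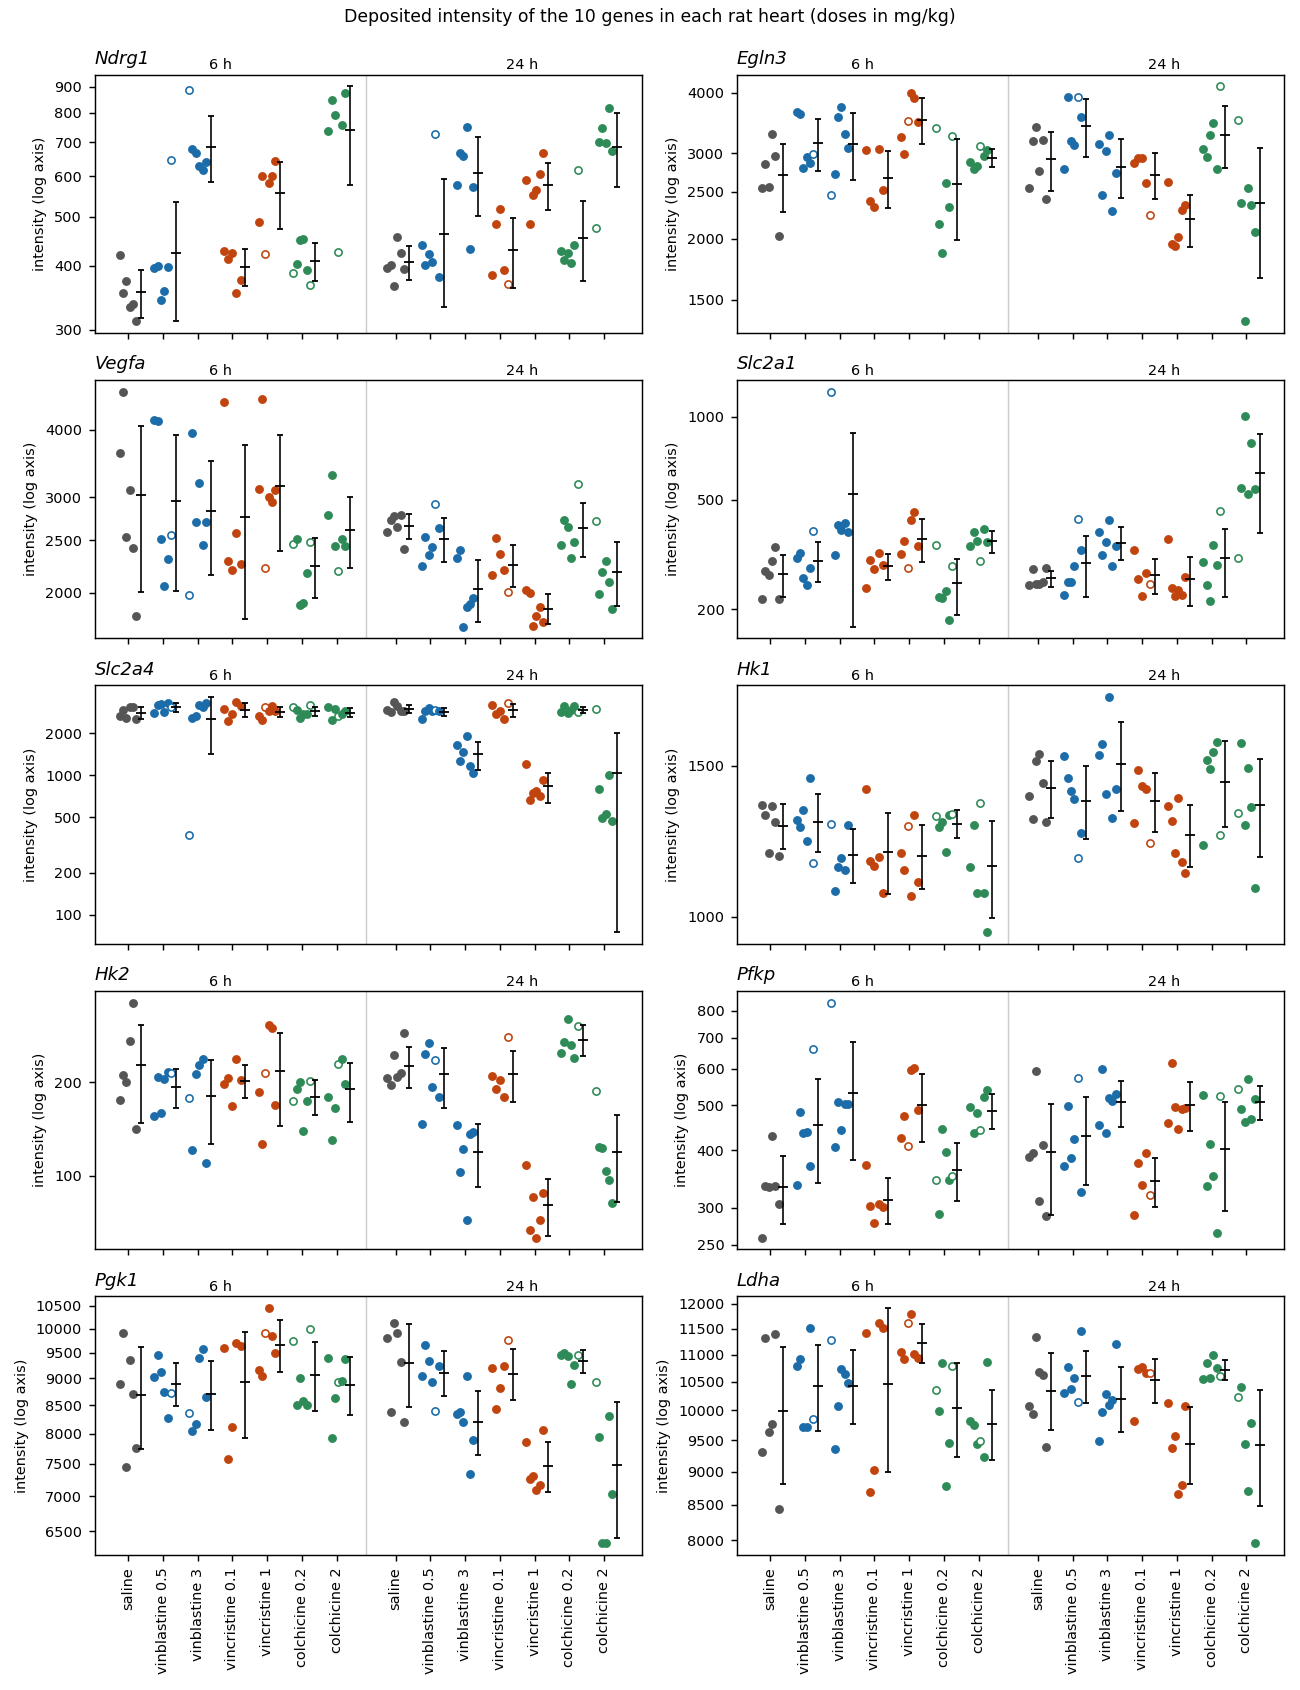
Intensity of each of the 10 genes (vertical axis, log scale) in every heart, by group (horizontal axis, doses in mg/kg), with 6 h left and 24 h right of the grey line. Each point is 1 animal, hollow points are the 10 arrays that lay nearer another group by a ratio above 1.3, and black bars are the group mean ± SD. Slc2a4 at 24 h falls from 2857 or more in every vehicle heart to 1209 or less in every vincristine 1 mg/kg heart.

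Against the vehicle of the same time, the 10 genes gave 24 calls in 120 tests of a gene at a dose, all of them at the higher doses. At the 3 lower doses none of the 10 passed at 6 h or at 24 h; of all genes tested 0.0353%, 0% and 0.274% passed at 6 h after vinblastine, vincristine and colchicine, and 0% at 24 h, so a count of 0 is near the background there. The number of the 10 with an unadjusted p under 0.05 at a lower dose was 2 (Pfkp at vinblastine 0.5 mg/kg 6 h and Vegfa at colchicine 0.2 mg/kg 6 h, with log2 changes of 0.41 and -0.38). Of the 11319 genes, 591, 441 and 757 had such a p at 6 h after vinblastine, vincristine and colchicine at the lower doses. At 24 h they numbered 227, 316 and 289, so a count of 2 also lies near the background. Vehicle hearts at 24 h did not pass against those at 6 h for any of the 10, beside 0.00883% of all genes. None of the 10 had an unadjusted p under 0.05 there either, while 1426 of the 11319 genes did.

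At 6 h the calls at the higher doses were all rises. Vinblastine 3 mg/kg raised 3 of the 10 genes (Ndrg1, Slc2a1 and Pfkp), beside 23.3% of all genes (15.7% higher, 7.67% lower). After vincristine 1 mg/kg 2 rose (Ndrg1 and Pfkp), beside 3.3% of all genes (2.05% higher, 1.25% lower), and after colchicine 2 mg/kg 2 rose (Ndrg1 and Pfkp), beside 9.27% of all genes (4.89% higher, 4.37% lower). The median log2 change of the 10 genes was 0.038, 0.17 and 0.02 for vinblastine, vincristine and colchicine, and that of all genes 0.0061, 0.011 and -0.0039.

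At 24 h falls joined the rises. Vinblastine 3 mg/kg gave 1 rise and 2 falls among the 10 genes, beside 9.58% of all genes (5.29% higher, 4.28% lower). Vincristine 1 mg/kg gave 2 rises and 5 falls, beside 30.4% of all genes (12% higher, 18.4% lower), and colchicine 2 mg/kg 3 rises and 4 falls, beside 44.6% of all genes (19.3% higher, 25.3% lower). Median log2 changes of the 10 were -0.034, -0.25 and -0.21, against -0.0053, -0.011 and 0.00019 over all genes. Ndrg1 passed in 6 of the 6 higher-dose comparisons and Pfkp in 5, always as rises. Slc2a4 and Hk2 fell in 3 each, all at 24 h. Hk1 and Ldha passed in none of the 12, with an unadjusted p under 0.05 in 2 and 3. At the higher doses 3956, 2103 and 2468 of the 11319 genes had such a p at 6 h after vinblastine, vincristine and colchicine. At 24 h 2523, 4511 and 5692 did.

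**Figure D2:**
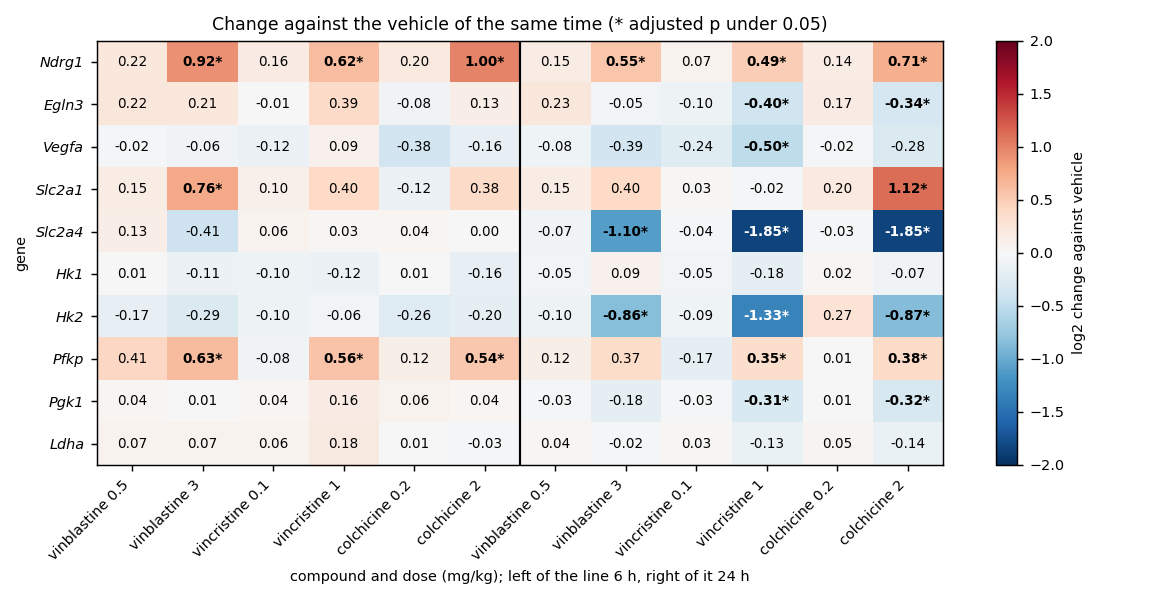
Log2 change of each of the 10 genes (rows) against the vehicle of the same time for the 12 dose groups (columns, mg/kg), 6 h left and 24 h right of the line; colour and number give the change, and bold with a star marks an adjusted p below 0.05. The starred cells lie only in the columns of the higher doses, with Ndrg1 starred in 6 columns and Slc2a4 and Hk2 in the 3 of the higher doses at 24 h.

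Ndrg1, a cytoplasmic protein induced by hypoxia and by several kinds of cell stress, was higher in every higher-dose group. At 6 h its intensity was 312 to 421 (median 345) in vehicle hearts, 618 to 887 (median 654) after vinblastine 3 mg/kg, 422 to 643 (median 592) after vincristine 1 mg/kg and 427 to 877 (median 775) after colchicine 2 mg/kg. None of these treated groups overlapped the vehicle, although the lowest colchicine and vincristine hearts, both among the 10 arrays set apart, lay just above it. Ndrg1 rose 1.89-fold after vinblastine (log2 0.92 ± 0.13, adjusted p = 2.46e-06), 1.54-fold after vincristine (0.62 ± 0.13, adjusted p = 0.00907) and 2.00-fold after colchicine (1.00 ± 0.13, adjusted p = 1.13e-06). Without the 10 arrays the log2 changes were 0.84, 0.69 and 1.14.

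At 24 h Ndrg1 read 366 to 457 (median 399) in vehicle hearts, 432 to 751 (median 617) after vinblastine, 484 to 667 (median 577) after vincristine and 476 to 816 (median 699.5) after colchicine at the higher doses. All vincristine and colchicine hearts lay above the vehicle, and 1 vinblastine heart, replicate 5, fell within it. The rises were 1.46-fold (log2 0.55 ± 0.13, adjusted p = 0.00299), 1.40-fold (0.49 ± 0.13, adjusted p = 0.00303) and 1.64-fold (0.71 ± 0.13, adjusted p = 6.42e-06; 0.81 without the 10 arrays). The change at 24 h minus that at 6 h was -0.37 ± 0.19 after vinblastine, and this difference did not pass (adjusted p = 0.254, 95% interval -0.74 to 0.0034); nor did it for vincristine or colchicine. The colchicine difference passed without the 10 arrays (-0.33, adjusted p = 0.0266).

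In the 17 lower-dose hearts of each time Ndrg1 was 342 to 646 (median 398) at 6 h and 369 to 726 (median 423) at 24 h. The 3 lower-dose hearts above 600 were vinblastine 0.5 mg/kg 6 h replicate 6 (646), vinblastine 0.5 mg/kg 24 h replicate 5 (726) and colchicine 0.2 mg/kg 24 h replicate 6 (618), and all are among the 10 arrays. A second Ndrg1 probe set of lower intensity rose at 6 h by 0.37, 0.36 and 0.39 in the same order, and at 24 h it passed after colchicine alone (0.32, against 0.12 and 0.18). Averaging both probe sets gave a log2 change of 0.34 for vinblastine 3 mg/kg at 24 h, which passed (adjusted p = 0.0206).

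The median sum of neutrophil markers was higher in the higher-dose groups at 6 h, though the lowest vincristine and colchicine hearts lay below every vehicle heart. Of 10 listed, 6 were on the array and 3 (S100a8, S100a9 and Camp) passed the filter; the summed intensity of the 6 was 163 to 234 in vehicle hearts, 954 to 1643 after vinblastine, 160.3 to 902 after vincristine and 160 to 1190.2 after colchicine at the higher doses. At 24 h the sums were 164 to 206, 239 to 291, 361 to 725 and 225 to 728 in the same order. Of the 3 tested, 3, 1 and 2 rose at 6 h after vinblastine, vincristine and colchicine, beside 15.7%, 2.05% and 4.89% of all genes. Mmp8, Csf3r and Cxcr2 did not pass the filter. S100a9 ran from 34.4 to 1194 over all arrays and S100a8, the next brightest, from 23.8 to 319, so the sum mainly follows S100a9. Lower-dose hearts reached sums of 1589 and 839 after vinblastine 0.5 mg/kg at 6 and 24 h, and 744 after colchicine 0.2 mg/kg at 24 h. The highest were 221 after colchicine 0.2 mg/kg at 6 h, and 192 and 242 after vincristine 0.1 mg/kg at 6 and 24 h. The part of these cells in the changes of the 10 genes was not tested.

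Egln3, a prolyl hydroxylase that is itself induced by hypoxia-inducible factors, did not pass at 6 h and fell at 24 h after vincristine and colchicine. Vehicle hearts read 2414 to 3402 (median 2969) at 24 h, vincristine 1 mg/kg hearts 1933 to 2621 (median 2155) and colchicine 2 mg/kg hearts 1354 to 3523 (median 2360.4), so both treated groups overlapped the vehicle. The falls were 1.32-fold (log2 -0.40 ± 0.13, adjusted p = 0.0128, lower than the vehicle mean in 6 of 6 hearts) and 1.27-fold (-0.34 ± 0.13, adjusted p = 0.0264, 5 of 6). Vinblastine 3 mg/kg hearts read 2279 to 3267 (median 2879), with a log2 change of -0.049 ± 0.13 (adjusted p = 0.882).

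The colchicine call of Egln3 depended on single animals. It was lost without colchicine replicate 3, which read 1354 (log2 -0.19, adjusted p = 0.228), without colchicine replicate 6 (0.0588), and without vehicle replicate 2, 3 or 5 (0.0563, 0.0746 and 0.0585); a fit of the compared groups alone, without the spread of the other groups, gave 0.138. It was -0.47 when the 10 arrays were left out (adjusted p = 0.000507). At 6 h Egln3 was 2024 to 3293 (median 2709) in vehicle hearts and 2992 to 4005 (median 3490.1) after vincristine 1 mg/kg, a log2 change of 0.39 ± 0.13 that did not pass (adjusted p = 0.0794). Without the 10 arrays it was 0.39 and passed (adjusted p = 0.0179).

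Vegfa, the growth factor that drives new vessels in tissue short of oxygen, did not rise at any dose. At 6 h its vehicle values spread widely, 1809 to 4699.7 (median 2819), and the higher-dose groups lay inside that spread, with log2 changes of -0.065, 0.092 and -0.16 for vinblastine, vincristine and colchicine, each with an SE of 0.15. At 24 h the vehicle hearts were tighter, 2408 to 2778 (median 2684), and vincristine 1 mg/kg hearts read 1735 to 2022 (median 1848), without overlap. Vegfa fell 1.42-fold there (log2 -0.50 ± 0.15, adjusted p = 0.00849).

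After vinblastine 3 mg/kg the 24 h Vegfa values, 1732 to 2398 (median 1929.9), also lay below every vehicle heart, and the change of -0.39 ± 0.15 did not pass (adjusted p = 0.0967). It passed when the compared groups alone were fitted (0.00447), with array weights (0.0145) and for the mean of probe sets (0.0108). Colchicine 2 mg/kg hearts read 1867 to 2709 (median 2135), a change of -0.28 ± 0.15 (adjusted p = 0.128). This colchicine change passed when the compared groups alone were fitted (0.0148) and with array weights (0.0356). A second Vegfa probe set gave -0.54 (adjusted p = 0.0344), -0.58 (0.00723) and -0.12 (0.625) for vinblastine, vincristine and colchicine at 24 h, adjusted over all probe sets tested.

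Hypoxia-inducible factors recognise short DNA elements with the core ACGTG or GCGTG, and the stretches before the start of 4 of the genes are shown to set beside the changes given here. Of these, Slc2a1 and Pfkp rose, Hk2 fell, and Ldha did not pass against vehicle. RefSeq promoter windows on rat build GRCr8 were matched by symbol for 7 of the 10 genes, and Ndrg1, Slc2a4 and Pgk1 have none in the table. Each line gives the 250 bases before the annotated start, 5′ to 3′ on the gene's strand, with matches to either core on either strand in capitals.
Slc2a1 (chr5:138002272-138002521, plus strand): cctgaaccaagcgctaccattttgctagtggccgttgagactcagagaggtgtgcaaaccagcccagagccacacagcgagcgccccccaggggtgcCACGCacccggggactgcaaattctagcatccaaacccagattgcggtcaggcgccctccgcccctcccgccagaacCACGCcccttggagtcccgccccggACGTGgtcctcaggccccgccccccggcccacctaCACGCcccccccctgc
Pfkp (chr17:68639563-68639812, plus strand): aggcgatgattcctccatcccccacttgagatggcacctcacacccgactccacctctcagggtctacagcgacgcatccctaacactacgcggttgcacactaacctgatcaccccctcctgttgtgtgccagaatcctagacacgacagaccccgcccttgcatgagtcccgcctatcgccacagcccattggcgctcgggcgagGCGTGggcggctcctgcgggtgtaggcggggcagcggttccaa
Ldha (chr1:106507842-106508091, plus strand): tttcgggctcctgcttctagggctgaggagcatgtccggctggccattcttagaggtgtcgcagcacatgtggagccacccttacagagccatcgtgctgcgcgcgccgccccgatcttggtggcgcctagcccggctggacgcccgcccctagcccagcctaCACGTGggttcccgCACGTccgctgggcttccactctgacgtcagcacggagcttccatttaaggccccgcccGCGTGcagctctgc
Hk2 (chr4:116841276-116841525, minus strand): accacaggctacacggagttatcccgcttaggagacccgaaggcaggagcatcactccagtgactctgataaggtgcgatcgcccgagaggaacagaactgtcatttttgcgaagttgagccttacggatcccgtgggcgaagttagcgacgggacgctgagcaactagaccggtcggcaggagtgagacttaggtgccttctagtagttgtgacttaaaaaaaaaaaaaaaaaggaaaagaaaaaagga

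The Slc2a1 stretch held 4 matches, the Ldha stretch 4, of which 2 overlap in 1 CACGTG that reads ACGTG on both strands, the Pfkp stretch 1 and the Hk2 stretch 0. Hk1 had 1 match in 1 of its 2 windows, and Egln3 and both windows of Vegfa had 0 matches. Over the full windows of 300 bases, which add 50 bases after the start, the matches were 4 for Slc2a1, 6 for Ldha, 2 for Pfkp and 0 for Hk2. At least 1 match stood in 36.7% of all 33469 windows over the 250 bases, and in 53.9% over 250 bases and 59.5% over 300 bases of the 10570 windows whose gene was tested on the arrays. Such letters are common before genes, and a match is a description of the sequence only.

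Slc2a1 carries glucose into cells at a basal rate and rose after vinblastine at 6 h and after colchicine at 24 h. At 6 h it read 217 to 336 (median 271) in vehicle hearts, 316 to 1231 (median 396) after vinblastine 3 mg/kg, 283 to 451 (median 347) after vincristine 1 mg/kg and 299 to 391 (median 353) after colchicine 2 mg/kg. Each treated group overlapped the vehicle at its lower end, and the single vinblastine value over 1000 was replicate 1, one of the 10 arrays. The vinblastine rise was 1.70-fold (log2 0.76 ± 0.18, adjusted p = 0.00146) and was 0.49 without replicate 1 (adjusted p = 0.0333). Fitting the compared groups alone ended that call (0.0857). Vincristine and colchicine gave 0.40 ± 0.18 and 0.38 ± 0.18, which did not pass (adjusted p = 0.210 and 0.201). Without the 10 arrays they were 0.47 and 0.43, and both passed. The colchicine change also passed in a fit of the compared groups alone (0.0318) and with array weights (0.0231).

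At 24 h Slc2a1 was highest after colchicine, at doses that differ between the compounds. Vehicle hearts were 246 to 282 (median 249.8), colchicine 2 mg/kg hearts 306 to 1009 (median 548), all above the vehicle, vinblastine 3 mg/kg hearts 287 to 421 (median 346), also all above it, and vincristine 1 mg/kg hearts 225 to 361 (median 237), overlapping it. Colchicine raised Slc2a1 2.18-fold (log2 1.12 ± 0.18, adjusted p = 5.56e-07), and 1.3 on the log2 scale without the 10 arrays. The vinblastine change was 0.40 ± 0.18 (adjusted p = 0.171). Without the 10 arrays, none of them in the groups compared, it stayed at 0.40 with an adjusted p of 0.0110. It also passed in a fit of the compared groups alone (0.00429) and with array weights (0.0234). The vincristine change was -0.024 ± 0.18 (adjusted p = 0.943, 95% interval -0.39 to 0.34). For colchicine the change at 24 h exceeded that at 6 h by 0.74 ± 0.26 (adjusted p = 0.0348; 0.87 without the 10 arrays). That difference was lost without colchicine 24 h replicate 3 or 5 (0.115 and 0.0817), colchicine 6 h replicate 4 (0.0618), or vehicle 6 h replicate 4 or 5 (0.0522 and 0.0643).

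Slc2a4, the insulin-responsive transporter of heart, skeletal muscle and fat, showed the largest log2 change against vehicle among the 10 genes, and passed only at 24 h. Its 6 h values were 2530.4 to 3101 (median 2797) in vehicle hearts, 2497 to 3125 (median 2894) after vincristine 1 mg/kg and 2505 to 3073 (median 2834) after colchicine 2 mg/kg, with log2 changes of 0.027 and 0.0033 (SE 0.25). These groups lay over each other. After vinblastine 3 mg/kg 5 hearts read 2587 to 3329 and replicate 1 read 373; with it the change was -0.41 ± 0.25 (adjusted p = 0.242).

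At 24 h the vehicle hearts read 2857 to 3355 (median 2917). Vinblastine 3 mg/kg hearts read 1036 to 1912 (median 1378), vincristine 1 mg/kg hearts 663 to 1209 (median 762), and colchicine 2 mg/kg hearts 469 to 2992 (median 667). All vinblastine and vincristine hearts lay below the vehicle, and so did 5 of the 6 colchicine hearts, which read 469 to 1003; the other was replicate 1, one of the 10 arrays. Slc2a4 fell 2.15-fold after vinblastine (log2 -1.10 ± 0.25, adjusted p = 0.00178), 3.61-fold after vincristine (-1.85 ± 0.25, adjusted p = 4.65e-08) and 3.61-fold after colchicine (-1.85 ± 0.25, adjusted p = 9.01e-09). Without the 10 arrays the colchicine fall was 4.67-fold (-2.22).

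The fall of Slc2a4 from 6 h to 24 h was itself tested. The change at 24 h minus that at 6 h was -1.88 ± 0.36 for vincristine (adjusted p = 0.000274) and -1.86 ± 0.36 for colchicine (adjusted p = 0.000131), and -1.86 and -2.24 without the 10 arrays. For vinblastine it was -0.69 ± 0.36 and did not pass with all arrays (adjusted p = 0.268), but it was -1.18 and passed without the 10 arrays. The 34 lower-dose hearts of both times read between 2472 and 3346, within or near the vehicle range. A second Slc2a4 probe set fell at 24 h too, with log2 changes of -1.01, -1.72 and -1.35 for vinblastine, vincristine and colchicine.

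Fat and skeletal muscle also use Slc2a4, and most of their defining markers were dim. Adipoq, Plin1, Lep and Cidec averaged 36.8, 39.1, 33.7 and 27.4 over all arrays, below the array median, and Myh4, Myh2 and Actn3 averaged 14.4, 19.4 and 23.4; the probe sets of Myh1, another skeletal myosin, and Mybpc2, the fast skeletal myosin-binding protein, were brighter, at means of 4262 and 117 (at most 487 for Mybpc2 on any array). Myh1 supplies most of the sum over the 8 skeletal muscle markers, so that sum mainly follows 1 probe set. It was 4328 to 5387 in the 24 h vehicle hearts and 2916 to 4692, 3077 to 4243 and 4001 to 5329 after vinblastine, vincristine and colchicine at the higher doses. Of the 4 tested, 1 rose and 1 fell after vinblastine, 1 rose and 1 fell after vincristine, and 1 rose and 0 fell after colchicine. The sum over the fat cell markers on the array was 168 to 218 in the 24 h vehicle hearts, 150.4 to 193 after vinblastine 3 mg/kg, 156 to 182 after vincristine 1 mg/kg and 169.8 to 185 after colchicine 2 mg/kg, and 1 of the 3 fat cell markers tested fell in each of these groups. Among the 9 cardiac muscle markers tested, 1 rose after vinblastine, 1 rose and 1 fell after vincristine, and 1 rose and 3 fell after colchicine at 24 h. Over all genes 5.29%, 12% and 19.3% rose and 4.28%, 18.4% and 25.3% fell at 24 h in the same order. The cardiac count after colchicine lies near the 44.6% of all genes that passed. The part of these tissues in the fall of Slc2a4 was not tested.

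Hk1, the constitutive hexokinase bound to mitochondria, did not pass at any dose or time against vehicle. Its values at 24 h were 1291 to 1548 (median 1407) in vehicle hearts and 1305 to 1805 (median 1477), 1126 to 1376 (median 1239.6) and 1079 to 1595 (median 1332) after vinblastine, vincristine and colchicine at the higher doses, all overlapping. The log2 changes there were 0.088, -0.18 and -0.07, and the 95% interval of the vincristine change, -0.33 to -0.021, lay below 0 although its adjusted p was 0.0771. The vincristine change passed in a fit of the compared groups alone (0.0486) and with array weights (0.0153).

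At 6 h Hk1 read 1178 to 1352 (median 1302) in vehicle hearts and 959 to 1357 (median 1105) after colchicine 2 mg/kg, a change of -0.16 ± 0.079 (adjusted p = 0.202). Without the 10 arrays this change was -0.21 and passed (adjusted p = 0.0452), as it did with array weights (0.00828). Vinblastine 3 mg/kg, at -0.11 with all arrays, passed at -0.23 after quantile normalization (0.0195).

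Hk2, the hexokinase that insulin and hypoxia-inducible factors raise in muscle, fell at 24 h after all higher doses. Vehicle hearts read 195 to 287 (median 210.5) and treated hearts 72.0 to 145 (median 129) after vinblastine, 63.1 to 108 (median 78.8) after vincristine and 81.4 to 187 (median 113) after colchicine. None of the treated hearts reached the vehicle range, and the highest colchicine heart was replicate 1, one of the 10 arrays. The falls were 1.81-fold (log2 -0.86 ± 0.17, adjusted p = 0.000314), 2.51-fold (-1.33 ± 0.17, adjusted p = 1.41e-08) and 1.83-fold (-0.87 ± 0.17, adjusted p = 2.29e-05). The colchicine fall without the 10 arrays was 1.99-fold.

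At 6 h the vehicle values of Hk2 spread from 141 to 360.2, and the higher-dose groups, at 109 to 237 (median 195), 127 to 304 (median 199.7) and 130 to 238 (median 188), lay within or just under that span; no change passed. After vincristine the Hk2 change at 24 h minus that at 6 h was -1.27 ± 0.24 (adjusted p = 0.000295; -1.26 without the 10 arrays). The colchicine difference, -0.67 ± 0.24 (adjusted p = 0.0436; -0.74 without the 10 arrays), was lost with a pseudocount of 64 (0.0562), without the filter on dim genes (0.0549), in a fit of the compared groups alone (0.0831) and without the arrays named with a suffix 2 (0.0879). It was also lost on leaving out any of 13 animals, with adjusted p between 0.0554 and 0.110. These were vehicle 6 h replicates 1, 2, 3 and 6, vehicle 24 h replicates 3 and 6, colchicine 6 h replicates 4, 5 and 6, and colchicine 24 h replicates 3, 4, 5 and 6. The vinblastine difference of -0.56 ± 0.24 did not pass (adjusted p = 0.172).

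Pfkp, the platelet form of phosphofructokinase that many non-muscle cells use, rose at 6 h after all higher doses. It read 259 to 429.6 (median 334) in vehicle hearts, 407 to 834 (median 503) after vinblastine, 408 to 604 (median 482) after vincristine and 435 to 541 (median 488) after colchicine. The colchicine group lay wholly above the vehicle, and the lowest vinblastine and vincristine hearts overlapped its highest animal. The rises were 1.55-fold (log2 0.63 ± 0.14, adjusted p = 0.000631), 1.48-fold (0.56 ± 0.14, adjusted p = 0.0150) and 1.45-fold (0.54 ± 0.14, adjusted p = 0.00719). They were 0.50, 0.62 and 0.56 when the 10 arrays were left out. The vincristine call was lost without vincristine replicate 4 or 5 (0.0787 and 0.0631).

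At 24 h Pfkp read 289 to 592 (median 391) in vehicle hearts, 437 to 598 (median 515) after vinblastine, 445 to 617 (median 493) after vincristine and 461 to 571 (median 504) after colchicine, and the highest vehicle heart, replicate 3, overlapped all 3 treated groups. Changes were 0.37 ± 0.14 (adjusted p = 0.0804), 0.35 ± 0.14 (0.0491) and 0.38 ± 0.14 (0.0232), so vincristine and colchicine passed and vinblastine did not. The vinblastine change passed without the 10 arrays (adjusted p = 0.0261), with array weights (0.00871) and without vehicle replicate 3 (log2 0.49, adjusted p = 0.0178). None of the 10 arrays belongs to the compared groups, so without them the change stayed at 0.37 and only the shared spread moved. Colchicine stood at 0.36 without the 10 arrays. The vincristine call was lost without vehicle replicate 1, 2, 4, 5 or 6 (0.0670, 0.0629, 0.135, 0.0553 and 0.159) and without vincristine replicate 2, 3, 5 or 6 (0.133, 0.0667, 0.0673 and 0.0655). It was also lost with a pseudocount of 64 (0.0521) and without the filter on dim genes (0.0602). The colchicine call was lost without vehicle replicate 4 or 6 (0.0755 and 0.0922) and without colchicine replicate 4 (0.0546).

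Platelets and macrophages are among the cells that carry Pfkp. The summed intensity of 4 platelet markers was 344 to 439 in the 6 h vehicle hearts and 280.1 to 808, 281 to 418 and 318 to 542 after vinblastine, vincristine and colchicine at the higher doses. Macrophage markers summed to 1832 to 3241 in vehicle hearts at 6 h and 2064 to 3388 after vinblastine 3 mg/kg, and at 24 h to 2115 to 2679 in vehicle hearts and 3403 to 5154, 3200.2 to 4255 and 2006 to 3341 after vinblastine, vincristine and colchicine. Of 6 tested, 0 rose and 2 fell at 6 h after each higher dose. Of all genes 7.67%, 1.25% and 4.37% fell there after vinblastine, vincristine and colchicine. At 24 h 3 of the 6 macrophage markers rose and 0 fell after vinblastine, 4 rose and 0 fell after vincristine, and 3 rose and 1 fell after colchicine. Of all genes 5.29%, 12% and 19.3% rose and 4.28%, 18.4% and 25.3% fell at 24 h in the same order. Other marker lists moved at 24 h too, given here in that order of compounds. Of 7 endothelial markers 2, 4 and 4 rose and 1, 2 and 1 fell. Of 6 fibroblast markers 1, 1 and 2 rose and 0, 3 and 4 fell. Of 3 red cell markers 0 rose and 3, 3 and 1 fell. The part of any of these cells in the Pfkp rise or in the changes of the other genes was not tested.

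Pgk1, which makes the first ATP of glycolysis, fell slightly at 24 h after vincristine and colchicine. Vehicle hearts read 8205 to 10128 (median 9563), vincristine 1 mg/kg hearts 7100.4 to 8059.8 (median 7292) and colchicine 2 mg/kg hearts 6339 to 8921 (median 7490.2). The vincristine hearts lay wholly below the vehicle and the colchicine hearts overlapped it. The falls were 1.24-fold (log2 -0.31 ± 0.067, adjusted p = 0.000172) and 1.25-fold (-0.32 ± 0.067, adjusted p = 5.11e-05), and vinblastine 3 mg/kg gave -0.18 ± 0.067 (adjusted p = 0.0769). The vinblastine change passed after quantile normalization (0.0352), with array weights (0.00824), and without vehicle replicate 6 (0.0375) or vinblastine replicate 4 (0.0467). A second Pgk1 probe set fell by 0.36 and 0.30 on the log2 scale for vincristine and colchicine. The mean of all 3 Pgk1 probe sets, 1 of them below the filter, fell by 0.21 for both. Without the 10 arrays the colchicine change was -0.37.

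At 6 h Pgk1 read 7453 to 9907 (median 8797) in vehicle hearts and 9043 to 10447 (median 9679) after vincristine 1 mg/kg, and no group passed. Between the times the change moved by -0.47 ± 0.094 for vincristine (adjusted p = 0.000479; -0.27 after quantile normalization, adjusted p = 0.015) and by -0.36 ± 0.094 for colchicine (adjusted p = 0.00440). Leaving out the 10 arrays gave -0.46 and -0.41. The colchicine difference was -0.23 for the mean of its probe sets (adjusted p = 0.00477), and it was lost when the compared groups alone were fitted (0.0584).

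Ldha, the muscle-type subunit of lactate dehydrogenase, did not pass against vehicle in any group. At 6 h it read 8443 to 11395 (median 9704) in vehicle hearts and 10912 to 11793 (median 11025) after vincristine 1 mg/kg, a change of 0.18 ± 0.064 (adjusted p = 0.107). At 24 h it read 9394 to 11346 (median 10345) in vehicle hearts, 8668 to 10121 (median 9473) after vincristine and 7962 to 10400.2 (median 9602) after colchicine, with changes of -0.13 ± 0.064 and -0.14 ± 0.064 (adjusted p = 0.110 and 0.0709). All these groups overlapped. The colchicine change at 24 h passed without the 10 arrays (-0.16, adjusted p = 0.0420), after quantile normalization (0.0318), with array weights (0.0121) and without vehicle replicate 6 (0.0372) or colchicine replicate 1 or 2 (0.0357 and 0.0333). The vincristine change passed with array weights at 24 h (0.0220) and without the suffix 2 arrays at 6 h (0.0354). For vincristine the change at 24 h minus that at 6 h was -0.31 ± 0.09 and passed (adjusted p = 0.0157), and it was lost without vehicle 6 h replicate 6 (0.0502) and after quantile normalization, at -0.14 (0.156); it was -0.30 without the 10 arrays. The vinblastine and colchicine differences, -0.088 ± 0.09 and -0.11 ± 0.09, did not pass.

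**Figure D3:**
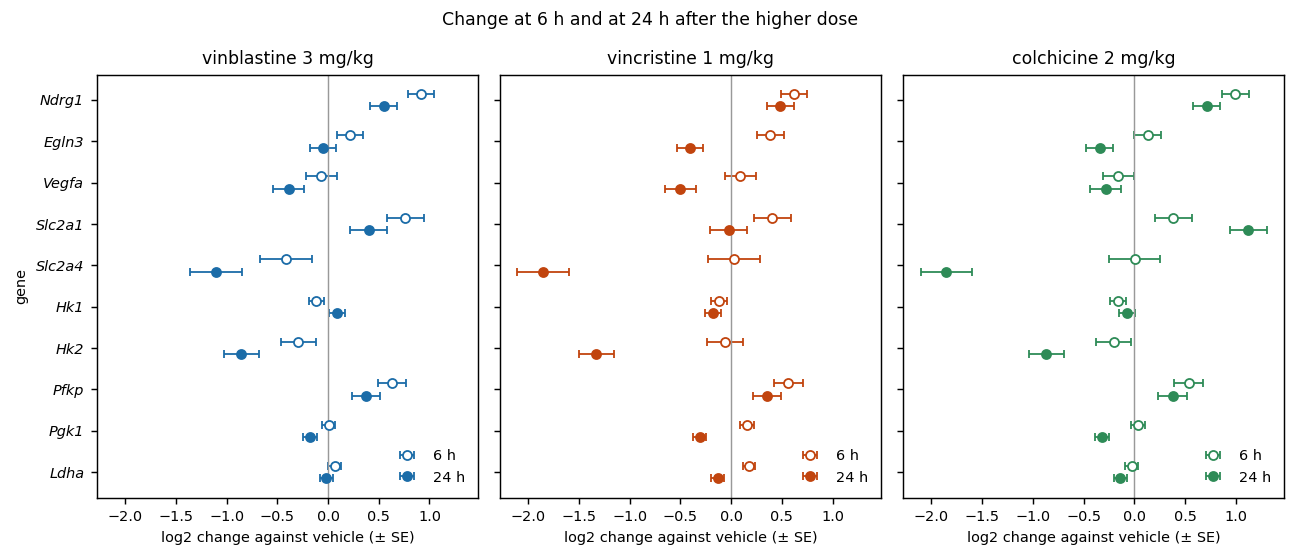
Log2 change against vehicle (horizontal axis, ± SE) of each of the 10 genes after the higher dose of each compound, with hollow points for 6 h and filled points for 24 h. Slc2a4 lies near 0 at 6 h after vincristine and colchicine and at -1.85 for both at 24 h, while Ndrg1 lies to the right of 0 at both times in every panel.

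Set against the lower dose of the same compound, 20 of 60 tests on the 10 genes passed. At 6 h vinblastine 3 against 0.5 mg/kg raised Ndrg1 (log2 0.70 ± 0.13, adjusted p = 0.00230) and Slc2a1 (0.61 ± 0.18, adjusted p = 0.0268), 2 of 10 beside 8.53% of all genes. Vincristine 1 against 0.1 mg/kg raised Pfkp (0.64 ± 0.15, adjusted p = 0.0107), 1 of 10 beside 2.81%. The 5 hearts at vincristine 0.1 mg/kg 6 h read 372, 303, 279, 307 and 302 for Pfkp, all below the vincristine 1 mg/kg hearts. Colchicine 2 against 0.2 mg/kg raised Ndrg1 (0.80 ± 0.13, adjusted p = 3.43e-05) and Pfkp (0.41 ± 0.14, adjusted p = 0.0480), 2 of 10 beside 9.25%.

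Some of these dose calls were lost without single animals. The Slc2a1 call for vinblastine at 6 h was lost without vinblastine 3 mg/kg replicate 1, at 0.33 (adjusted p = 0.340), and without vinblastine 0.5 mg/kg replicate 1, 3, 4 or 5 (0.0502 to 0.0664). It was also lost without the suffix 2 arrays (0.414). Fitting the compared groups alone ended both vinblastine calls (0.101 for Ndrg1 and 0.296 for Slc2a1). The Pfkp call for colchicine at 6 h was lost on leaving out any of 10 animals, namely every colchicine 0.2 mg/kg animal but replicate 3 and every colchicine 2 mg/kg animal but replicate 4 (0.0515 to 0.133). It was lost too with a pseudocount of 64 (0.0515) and without the filter on dim genes (0.0591).

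Leaving out the 10 arrays kept these 6 h calls, with log2 changes of 0.75 (Ndrg1) and 0.40 (Slc2a1) for vinblastine, 0.69 (Pfkp) for vincristine, and 0.89 (Ndrg1) and 0.42 (Pfkp) for colchicine. Other genes of the 10 then passed as well. For colchicine these were Slc2a1 at 0.72 and Egln3 at 0.38, and for vincristine Ndrg1 at 0.53, Egln3 at 0.40 and Slc2a1 at 0.37.

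At 24 h vinblastine 3 against 0.5 mg/kg lowered Slc2a4 (-1.03 ± 0.25, adjusted p = 0.00594) and Hk2 (-0.75 ± 0.17, adjusted p = 0.00251), 2 of 10 beside 5.49% of all genes. For vincristine 1 against 0.1 mg/kg 5 of 10 passed, beside 23.9%: Ndrg1 (0.42) and Pfkp (0.52) were higher and Slc2a4 (-1.81), Hk2 (-1.24) and Pgk1 (-0.28) lower. For colchicine 2 against 0.2 mg/kg 8 of 10 passed, beside 41.5%: Ndrg1 (0.57), Slc2a1 (0.93) and Pfkp (0.36) were higher and Egln3 (-0.51), Slc2a4 (-1.83), Hk2 (-1.14), Pgk1 (-0.33) and Ldha (-0.19) lower. Slc2a4 in the vincristine 0.1 mg/kg hearts read 3214, 2751, 2878, 2543 and 3303, well above the vincristine 1 mg/kg hearts.

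These 24 h calls were kept without the 10 arrays, at -1.02 (Slc2a4) and -0.72 (Hk2) for vinblastine. For vincristine they stood at 0.37 (Ndrg1), 0.50 (Pfkp), -1.77 (Slc2a4), -1.14 (Hk2) and -0.26 (Pgk1). For colchicine they stood at 0.76 (Ndrg1), 1.22 (Slc2a1), 0.42 (Pfkp), -0.57 (Egln3), -2.21 (Slc2a4), -1.23 (Hk2), -0.38 (Pgk1) and -0.22 (Ldha). Ndrg1 and Slc2a1 then passed for vinblastine too (0.53 and 0.36), and Egln3 for vincristine (-0.37). The Pgk1 change for colchicine was -0.21 for the mean of its probe sets.

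Leaving out single animals ended 3 of these 24 h calls. For vincristine Ndrg1 was lost without vincristine 0.1 mg/kg replicate 1, 4 or 5 (0.0504 to 0.0632), in which it read 383, 393 and 369. For colchicine Pfkp was lost without colchicine 0.2 mg/kg replicate 2, 4 or 5 or colchicine 2 mg/kg replicate 4 (0.0666 to 0.151) and in a fit of the compared groups alone (0.0675), and Ldha without colchicine 2 mg/kg replicate 6 (0.0697).

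The change between the times passed for 0 of the 10 genes after vinblastine 3 mg/kg, beside 4.44% of all genes. There 1 of the 10, Hk2, had an unadjusted p under 0.05, and so did 2265 of the 11319 genes. After vincristine 1 mg/kg 5 of 10 passed, beside 12.3%, and all were lower at 24 h: Egln3 (-0.79, also without the 10 arrays), Slc2a4, Hk2, Pgk1 and Ldha. After colchicine 2 mg/kg 4 of 10 passed, beside 18.9%: Slc2a1 moved up and Slc2a4, Hk2 and Pgk1 moved down. Egln3 moved by -0.47 ± 0.18 after colchicine and did not pass (adjusted p = 0.0614), but passed at -0.58 without the 10 arrays. Vegfa moved by -0.59 ± 0.22 after vincristine (adjusted p = 0.0580), and passed at -0.69 without them, as did Slc2a1 at -0.49.

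Other genes of glycolysis and pyruvate handling included large falls and rises at 24 h. Of 27 listed, 25 were tested. After vincristine 1 mg/kg at 24 h 3 rose and 13 fell (median log2 -0.17, against -0.011 over all genes), beside 30.4% of all genes (12% higher, 18.4% lower). After colchicine 2 mg/kg 5 rose and 10 fell (median -0.12, against 0.00019), beside 44.6% of all genes (19.3% higher, 25.3% lower). Vinblastine 3 mg/kg gave 2 higher and 3 lower (median -0.073, against -0.0053), beside 9.58%. Pgam2 and Eno3, the muscle forms of phosphoglycerate mutase and enolase, fell by 1.34 and 0.83 on the log2 scale after vincristine. Pfkm, the muscle phosphofructokinase, fell by 1.12 after colchicine, where Pfkp rose. Pdk4, the kinase that shuts off pyruvate dehydrogenase, and Txnip, which limits glucose uptake, rose by 1.93 and 1.54 after vincristine and by 2.11 and 1.38 after colchicine.

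Pdk4 and Txnip had risen by 6 h too. There 3 rose and 1 fell after vinblastine, 2 rose and 0 fell after vincristine and 2 rose and 0 fell after colchicine, of the 25 tested, beside 23.3%, 3.3% and 9.27% of all genes. Pdk4 rose by 2.17, 1.63 and 1.80, and Txnip by 1.41, 1.03 and 0.84. 

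**Figure D4:**
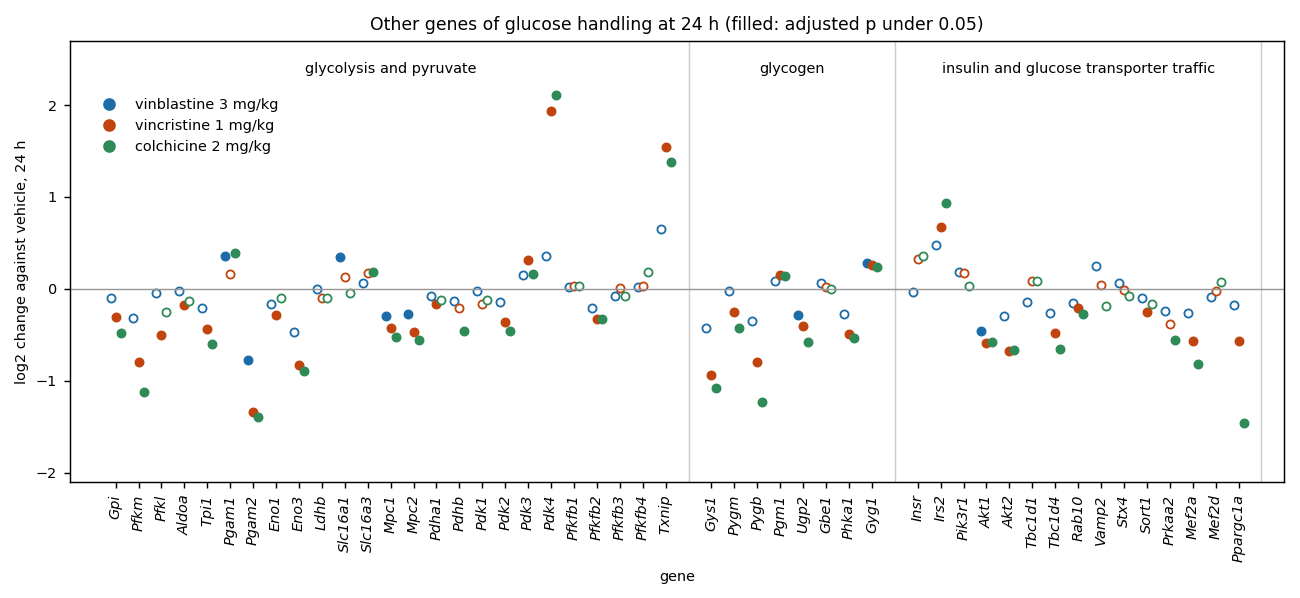
Log2 change against vehicle at 24 h (vertical axis) of the other genes of glycolysis and pyruvate handling, glycogen, and insulin and transporter traffic (horizontal axis), for the higher dose of each compound. Filled points passed at an adjusted p below 0.05; Pdk4 lies at 1.93 and 2.11 for vincristine and colchicine, while Pgam2 lies at -1.34 and -1.40.

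After vincristine and colchicine at 24 h, genes of glycogen turnover and of insulin action gave more falls than rises. Of 8 glycogen genes tested out of 10 listed, 2 rose and 5 fell after vincristine (median -0.33) and 2 rose and 5 fell after colchicine (median -0.48), beside 30.4% (18.4% lower) and 44.6% (25.3% lower) of all genes. After vinblastine 1 rose and 1 fell (median -0.15), beside 9.58%. The largest falls were in Pygb, a glycogen phosphorylase, and Gys1, the muscle glycogen synthase, at -1.24 and -1.08 after colchicine. Of 15 genes of insulin signalling and transporter traffic tested out of 17, 1 rose and 7 fell after vincristine and 1 rose and 7 fell after colchicine, with medians of -0.21 and -0.18. The insulin count of 8 of 15 after colchicine lies near the 44.6% of all genes, and that after vincristine stands beside 30.4%; after vinblastine 0 rose and 1 fell (median -0.14), beside 9.58%. Ppargc1a, a coactivator of oxidative metabolism, fell by 1.46 after colchicine, Akt2, the insulin-activated kinase that moves Slc2a4, fell by 0.68 after vincristine, and Irs2, an insulin receptor substrate, rose by 0.94 after colchicine.

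Other known hypoxia targets gave more rises than falls. Of 22 listed, 19 were tested; at 6 h 11 rose and 0 fell after vinblastine, 2 rose and 0 fell after vincristine and 5 rose and 0 fell after colchicine, and at 24 h 7 rose and 0 fell, 7 rose and 3 fell and 9 rose and 4 fell in the same order. Over all genes 15.7%, 2.05% and 4.89% rose at 6 h, and 5.29%, 12% and 19.3% at 24 h. The shares that fell were 7.67%, 1.25% and 4.37% at 6 h, and 4.28%, 18.4% and 25.3% at 24 h. The falls in the list after vincristine and colchicine at 24 h lie near those shares. The median log2 changes of the list were 0.40, 0.24 and 0.28 at 6 h, against 0.0061, 0.011 and -0.0039 over all genes, and 0.25, 0.027 and 0.29 at 24 h, against -0.0053, -0.011 and 0.00019. Angptl4, an inhibitor of lipoprotein lipase that fasting also raises, rose by 3.46 and 3.68 after vincristine and colchicine at 24 h, and Hmox1, a haem-degrading enzyme of the oxidative stress response, by 1.49 and 2.32. Ak4, a mitochondrial adenylate kinase, fell by 1.10 and 1.52 there.

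Of 6 oxygen-sensing genes tested out of 8 listed, 2 rose and 0 fell after vinblastine at 6 h, 1 rose and 2 fell after vincristine at 24 h and 2 rose and 1 fell after colchicine at 24 h, beside 23.3%, 30.4% and 44.6% of all genes; none passed in the other 3 higher-dose comparisons. Egln1, the main hydroxylase beside Egln3, fell by 0.47 and 0.64 after vincristine and colchicine at 24 h, and Vhl, which targets hydroxylated factors for destruction, rose by 0.28 and 0.44. Hif1a fell by 0.43 after vincristine. Of the 9 other VEGF ligands and receptors, 2 rose and 1 fell after vinblastine, 0 rose and 0 fell after vincristine and 1 rose and 2 fell after colchicine at 6 h, beside 23.3%, 3.3% and 9.27% of all genes. At 24 h 0 rose and 3 fell, 1 rose and 3 fell and 3 rose and 2 fell in the same order, beside 9.58%, 30.4% and 44.6%. Pgf, the placental growth factor, rose by 1.35 after vinblastine at 6 h and by 1.88 after colchicine at 24 h, and Nrp1, a coreceptor, fell by 0.89 and 1.53. Of the other 3 NDRG genes none passed except Ndrg3 and Ndrg4, which fell after colchicine at 24 h (-0.22 and -0.29), 2 of 3 beside 44.6%. At the lower doses 0 of the 85 listed genes tested passed by limma at either time. Of 255 tests of a gene at a dose at each time, 14 at 6 h and 8 at 24 h had an unadjusted p under 0.05. Of the 11319 genes, 591, 441 and 757 had such a p at 6 h after the lower doses of vinblastine, vincristine and colchicine. At 24 h 227, 316 and 289 did, so the counts of the listed genes lie near the background.

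Across the 14 group means of log2 intensity some of the 10 genes ran together. Slc2a4 followed Pgk1 (Pearson r = 0.94) and Hk2 (0.92), Ndrg1 followed Pfkp (0.87) and Slc2a1 (0.76), and Ndrg1 ran opposite to Slc2a4 (-0.58). Of 45 pairs 11 had r above 0.7 and 4 below -0.5. Within groups, over all 82 arrays, r was lower: 0.48 for Slc2a4 with Pgk1 and 0.33 for Ndrg1 with Pfkp. These are descriptions over 14 points, each the mean of the hearts of 1 group.

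Among 11199 other tested genes, those whose group means ran closest to Slc2a4 were Reep1 (0.99), Hspd1 (0.99) and Pcp4l1 (0.99), and those closest to Hk2 were Mrpl37 (0.96), Akt1 (0.96) and Agtpbp1 (0.95). Closest to Pgk1 were Csnk2a1 (0.98), Casq2 (0.97) and Hspd1 (0.97), and closest to Egln3 were the cardiac muscle genes Mb (0.93), Tnnt2 (0.92) and Myl3 (0.91). Ndrg1 ran closest to Adgrg1 (0.97), Atp6ap2 (0.96) and Bcl2l1 (0.96), Slc2a1 to Plod2 (0.93), Itgb1 (0.93) and Tpm3 (0.93), Pfkp to Pgm1 (0.96), Crmp1 (0.95) and Pstpip1 (0.95) and Vegfa to Aopep (0.89), Srsf5 (0.88) and Cks2 (0.88). Each r is over 14 group means and is the highest found in a search of all these genes.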

How the data were processed

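RNA from 82 rat hearts was hybridised to 1 Affymetrix array each, labelled with the 3′ IVT kit per the labels' protocols. The deposited values are linear array intensities of 31099 probe sets from 9.76 to 39497, as the authors gave them in the series' value table; the background correction, normalization and summary method are not given in the sources used here. Of these probe sets 57 are controls, 20832 carry 1 gene symbol, 436 several and 9831 are not in the annotation used; probe sets with several symbols were not used. Per gene the probe set with the highest mean was taken, log2(intensity + 16) was computed, and genes above the 40th percentile of their array on at least 5 arrays were kept (11319 of 14217).

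limma 3.58.1 (R 4.3.3) fitted the 14 group means to all 82 arrays in one model with an empirical Bayes variance (residual df 68, prior df 4.7); 22 contrasts were adjusted by Benjamini-Hochberg over the genes tested, and intervals are 95%. The script was tested on simulated data. Groups come from the sample titles, with each array a separate animal, so p-values measure the spread between these animals, and the number of arrays limits the precision. The 2 most alike arrays correlated at 0.999 and no pair was identical. The 10 genes and the lists of other genes were chosen with earlier results of these data known, and from each list at most the 4 genes past the threshold with the largest change per comparison are named. Alternatives were the pseudocount, quantile normalization, the filter and the mean of a gene's probe sets. Others were a fit of the compared groups alone, a replicate block and array weights. The rest left out each animal, the arrays named with a suffix 2, or the 10 arrays nearer another group by a ratio above 1.3. Promoter windows are those of RefSeq, build GRCr8.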

Additional observations from a re-analysis of the deposited data

Results flagged for a closer look

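Single hearts stood apart from their own group in 16 of 140 checks of a gene in a group of 5 or 6, by a gap to the nearest heart above the 95% limit of Dixon's test. For normally spread values that limit lets about 1 in 20 through by chance. The 10 genes share the same arrays and were checked on the linear scale. The checks are therefore not independent, and their number cannot be weighed against that rate. For Ndrg1 the highest hearts were vinblastine 0.5 mg/kg 6 h replicate 6 at 646, vinblastine 0.5 mg/kg 24 h replicate 5 at 726, vinblastine 3 mg/kg 6 h replicate 1 at 887 and colchicine 0.2 mg/kg 24 h replicate 6 at 618, and colchicine 2 mg/kg 6 h replicate 4 was the lowest of its group at 427. Vinblastine 3 mg/kg 6 h replicate 1 also stood apart for Slc2a1 at 1231, Pfkp at 834 and, as the lowest, Slc2a4 at 373. Colchicine 2 mg/kg 24 h replicate 1 was the highest of its group for Slc2a4 at 2992. All of these are among the 10 arrays that lay nearer another group by a ratio above 1.3.

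The other hearts are not among those 10 arrays, though some of them also lay nearer another group by a smaller ratio. Vegfa read 4492 in vincristine 0.1 mg/kg 6 h replicate 1, and Slc2a1 read 361 in vincristine 1 mg/kg 24 h replicate 1. Slc2a4 was lowest, at 2518, in vinblastine 0.5 mg/kg 24 h replicate 1, and Hk1 was lowest, at 1191, in colchicine 0.2 mg/kg 6 h replicate 4. Pfkp read 617 in vincristine 1 mg/kg 24 h replicate 2. Ldha was lowest at 9816 in vincristine 0.1 mg/kg 24 h replicate 1 and highest at 10867 in colchicine 2 mg/kg 6 h replicate 6.

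The change against vehicle differed between 24 h and 6 h in 9 tests of the difference itself by limma. After vincristine 1 mg/kg the log2 change at 24 h minus that at 6 h was -0.79 for Egln3, -1.88 for Slc2a4, -1.27 for Hk2, -0.47 for Pgk1 and -0.31 for Ldha. After colchicine 2 mg/kg it was 0.74 for Slc2a1, -1.86 for Slc2a4, -0.67 for Hk2 and -0.36 for Pgk1.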

How the results depend on the processing

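Of the 53 calls on the 10 genes, none changed direction under any alternative run, and 38 kept their side of the threshold under all of them. Calls lost numbered 3 with a pseudocount of 64 and 3 without the filter, 1 after quantile normalization, 7 in fits of the compared groups alone and 2 without the arrays of suffix 2; the losses are named beside the results. Leaving out single animals lost 12 calls at least once, in 61 of 738 refits.

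Counts of the 10 genes past the threshold that moved by over 1.5 times were these, and the cause was not tested. For vinblastine 3 mg/kg against vehicle at 24 h the count of 3 became 5 in the compared groups alone, 7 with array weights and 5 without the 10 arrays. None of the 10 arrays belongs to those groups. For vincristine 1 mg/kg at 6 h and colchicine 2 mg/kg at 6 h the counts of 2 each became 4 without the 10 arrays, and colchicine also 4 with array weights. For vinblastine 3 against 0.5 mg/kg the 6 h count of 2 became 0 in the compared groups alone and 1 without the suffix 2 arrays, and the 24 h count of 2 became 4 without the 10 arrays. For vincristine 1 against 0.1 mg/kg the 6 h count of 1 became 2 with a stricter filter, 2 with the mean of probe sets, 3 in the compared groups alone, 3 with array weights and 4 without the 10 arrays; the 24 h count of 5 became 8 in the compared groups alone and 9 with array weights. For colchicine 2 against 0.2 mg/kg at 6 h the count of 2 became 1 with a pseudocount of 64, 1 without the filter, 5 with array weights and 4 without the 10 arrays. For the change at 24 h minus that at 6 h, vinblastine went from 0 to 1 with array weights, without the suffix 2 arrays and without the 10 arrays, and colchicine from 4 to 2 in the compared groups alone.

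On leaving out 1 animal, the counts against vehicle at 6 h ranged from 1 to 3 for vincristine 1 mg/kg and stayed at 3 and 2 for vinblastine and colchicine. At 24 h they ranged from 3 to 4, 6 to 7 and 6 to 8 for vinblastine, vincristine and colchicine. Against the lower dose they ranged from 1 to 2, 1 to 2 and 1 to 3 at 6 h and from 2 to 3, 4 to 5 and 7 to 8 at 24 h. For the difference between the times they ranged from 0 to 1, 4 to 6 and 2 to 5.

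No steady pairing by replicate number was seen: correlations of the deviations of same-numbered animals ran from -0.38 to 0.45, and 0 of 12 comparisons had all above 0.1. The median of a comparison ran from -0.10 to 0.28. Single deviant arrays can keep a comparison from having all above 0.1, so this does not show that pairing is absent. With the replicate number as a block the Pfkp calls for vincristine 1 mg/kg at 24 h and colchicine 2 against 0.2 mg/kg at 6 h were lost (adjusted p = 0.0572 and 0.0570), taking the latter count from 2 to 1. The change of Vegfa between the times after vincristine then passed (-0.59, adjusted p = 0.0304), and no other call was lost or gained. Dim genes such as Hk2 lie nearest the background, where a larger pseudocount shrinks the log2 change.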
